A study of Mus musculus with 39 samples.

Results

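The 38 genes described here encode the cornified envelope and the barrier of the skin: envelope proteins, the enzymes that cross-link and trim them, lipid enzymes, adhesion proteins of the outer layers, secreted epidermal proteins and transcription factors of late keratinocyte differentiation. They were chosen by name, with earlier results of these data known. Each was read from 1 probe set, the one with the highest mean over all arrays. All 38 were measured, among 18194 genes in all. Below, a level is the deposited log2 value of a gene on an array, and a difference is on the log2 scale, so a difference of 1 is a doubling of the signal. Levels of different genes come from different probe sets and were not set against each other.

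In the epidermis, basal keratinocytes that leave the basement membrane first make suprabasal keratins such as Krt10 and later the cornified envelope. Envelope precursors (involucrin, loricrin, the small proline-rich proteins, envoplakin and periplakin) are cross-linked under the plasma membrane by transglutaminases, filaggrin aggregates keratin filaments, and 12R-lipoxygenase and its partner eLOX3 process the ceramides that are attached to the envelope. Serine proteases of the kallikrein family then cut corneodesmosin and the desmosomal cadherins so that dead cells can be shed. The normal mammary gland is built of luminal and myoepithelial cells in a fat pad and does not cornify, although the skin of the nipple and hair follicles lie close by.

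Expression was measured on 39 Affymetrix arrays of mouse tissue, 1 array per tissue sample, in 6 groups. Genotypes are built from SB, Tg, K5Cre and Bcat as the labels write them. Sleeping Beauty, in the title of the series, is a transposon system for insertional mutagenesis. Breast tissue of 15 quadruple mice (SB/Tg/K5Cre/Bcat) was put on 19 arrays. Triple K5Cre mice (SB/Tg/K5Cre) numbered 8, with 1 breast array each, and 2 triple Bcat mice (SB/Tg/Bcat) supplied 3 breast arrays. Masses in the breast of Bcat +/- mice gave 2 arrays from 2 animals, and ventral tumours of a single Bcat +/- mouse gave 3 arrays. Normal mammary gland came from 4 animals: gland 1 from a triple Bcat mouse, gland 2 from a quadruple mouse, and glands 3 and 4 from triple K5Cre mice that also gave the breast arrays triple K5Cre 2 and 3. By their labels SB and Tg were carried by every gland donor and by every quadruple and triple animal, and the glands are therefore not wild-type tissue. For quadruple and triple mice the tissue label is breast, and whether a sample was a tumour is not stated. Age and sex are not stated either, and K5Cre is read only as a Cre transgene named for keratin 5. Animals were read from identifiers shared between sample titles. The titles of the Bcat +/- masses and ventral tumours, and of no other sample, carry C57. Whether it names a strain is not stated, and if it does, strain and genotype cannot be told apart in comparisons with these groups.

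The medians of the arrays lay between 5.10 and 5.27, and all arrays carried epithelial signal, with Krt8, a luminal keratin, between 10.39 and 14.25. Adipocyte and muscle genes set the glands apart: the mean of 10 adipocyte genes was 12.45 to 12.84 on the 4 glands and 4.79 to 8.96 on all other arrays except quadruple 2 (12.51) and quadruple 9 (11.29). The mean of 11 skeletal muscle genes was 10.68 to 12.24 on the glands and reached 11.66 on triple K5Cre 7, 11.06 on quadruple 5 and 11.0003 on quadruple 9. Xist, the RNA of the inactive X chromosome, was low on normal gland 3 (5.64), quadruple 5 (5.72) and triple K5Cre 2 (6.999) and at least 10.77 on the other arrays. These 3 arrays were also low in the barrier genes, with means of 4.86, 5.41 and 4.81. The part of these differences in the results below was not tested, other than by the fits named beside them. In bulk tissue, fewer cells of a type and less RNA per cell cannot be told apart.

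Several of the genes are neighbours. On chromosome 3, Lor, Sprr1b, Sprr3, Sprr1a, Ivl, Flg, Rptn and Them5 lie in this order, and Sprr1b, Sprr3 and Sprr1a have no other coding gene between them. Sbsn, Dmkn and Krtdap are adjacent on chromosome 7, and Aloxe3 and Alox12b are adjacent on chromosome 11. The 150 bases before the annotated start of 5 chromosome 3 genes are shown because 4 of them varied widely between arrays while Sprr3, between Sprr1b and Sprr1a, stayed near its gland level on most arrays. The sequences are from RefSeq (assembly GRCm38.p6), on the minus strand, 5′ to 3′. Capitals mark TGANTCA (the AP-1 site, bound by Fos and Jun proteins), TATAAA (the TATA box) and GGGNGTGG (a KLF site), each searched on both strands. Sprr1a lies at chr3:92485882-92486031, Sprr1b at chr3:92438780-92438929, Sprr3 at chr3:92458721-92458870, Ivl at chr3:92573736-92573885 and Lor at chr3:92083143-92083292.
Sprr1a: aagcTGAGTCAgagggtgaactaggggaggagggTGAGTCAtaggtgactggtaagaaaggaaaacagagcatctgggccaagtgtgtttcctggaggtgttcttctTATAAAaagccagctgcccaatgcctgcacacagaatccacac
Sprr1b: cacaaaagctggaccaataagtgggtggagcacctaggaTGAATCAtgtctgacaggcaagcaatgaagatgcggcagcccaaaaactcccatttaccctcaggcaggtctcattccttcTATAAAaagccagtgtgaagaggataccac
Sprr3: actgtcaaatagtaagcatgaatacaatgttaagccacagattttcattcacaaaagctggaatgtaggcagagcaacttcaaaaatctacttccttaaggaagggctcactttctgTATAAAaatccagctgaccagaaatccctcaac
Ivl: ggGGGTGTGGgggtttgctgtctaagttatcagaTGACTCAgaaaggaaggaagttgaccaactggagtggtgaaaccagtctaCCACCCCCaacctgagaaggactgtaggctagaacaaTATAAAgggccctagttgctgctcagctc
Lor: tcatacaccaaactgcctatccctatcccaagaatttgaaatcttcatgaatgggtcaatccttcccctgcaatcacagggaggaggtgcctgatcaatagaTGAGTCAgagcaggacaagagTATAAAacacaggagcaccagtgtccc

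TGANTCA was found in the windows of Sprr1a, Sprr1b, Ivl and Lor, and not in that of Sprr3, where TATAAA was found. The match in Sprr1b has A in the middle and lies outside TGA(C/G)TCA, and the counts below take any middle base. Promoters of 28 of the 38 genes were matched in the RefSeq table. In the 250 bases before the start, TGANTCA was found in 12 of these 28, against 6.75% of 32851 mouse promoters. The 12 were Dmkn, Flg, Ivl, Krtdap, Lor, Psapl1, Rptn, Sbsn, Scel, Serpinb11, Sprr1a and Sprr1b. Among matched genes without it, besides Sprr3, were Casp14, Cnfn, Dapl1, Grhl3 and Tgm3. Their SDs over the 39 arrays were 3.00, 2.99, 2.39, 2.15 and 1.81, against 0.43 for Sprr3. A link between the letters and the range of a gene was not tested. TATAAA was found in 10 of 28 (12.4% of all promoters), GGGNGTGG in 5 (15.9%) and AACNGGTT, the Grainyhead-like site, in 1, that of Rptn (1.79%). A match describes letters in a window and not a bound site.

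The barrier genes moved over a wide range, and they did so within genotypes. Their mean level was 5.52 ± 1.25 on the glands (SD, n = 4 arrays), 8.31 ± 2.06 on the quadruple arrays (n = 19), 7.94 ± 2.48 on triple K5Cre (n = 8), 9.54 ± 1.57 on triple Bcat (n = 3), 9.68 ± 1.01 on the masses (n = 2) and 10.10 ± 0.57 on the ventral tumours (n = 3, 1 animal). The quadruple arrays fell into 8 with means of 5.10 to 7.03 and 11 with means of 8.74 to 11.13. The triple K5Cre arrays likewise fell into 4 with means of 4.81 to 6.96 and 4 with means of 9.69 to 10.61. No array of either genotype lay between, so a group mean describes few of its own arrays.

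**Figure D1:**
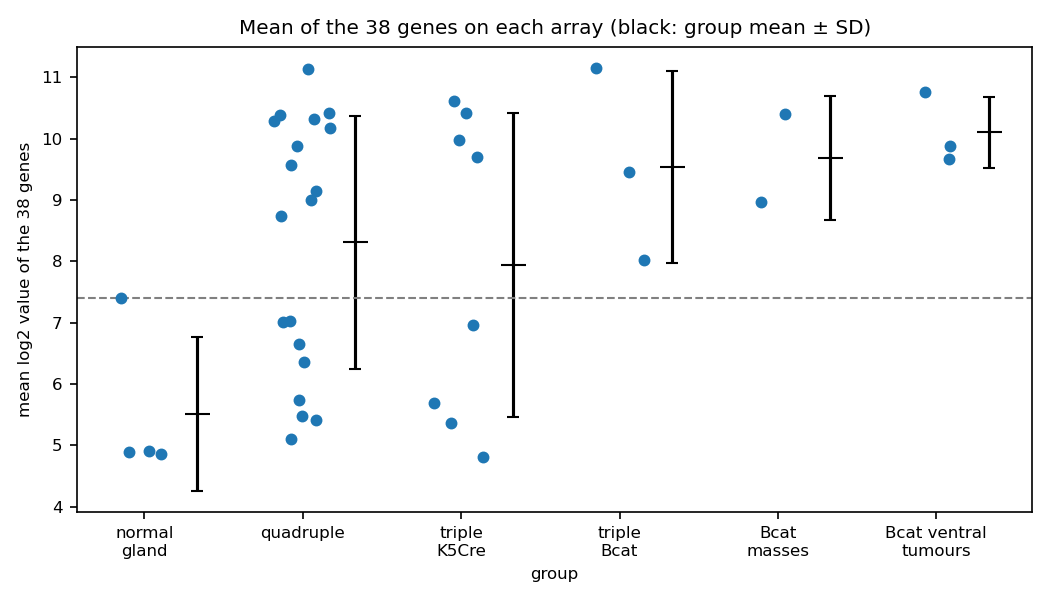
Mean log2 level of the 38 barrier genes on each of 39 arrays (points), with the mean and SD of each group (black); the dashed line is the highest gland, 7.40. The quadruple and triple K5Cre arrays lie on both sides of the line, and all triple Bcat, mass and ventral tumour arrays lie above it.

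Above the highest gland mean were 11 of 19 quadruple arrays, 4 of 8 triple K5Cre arrays and all 3, 2 and 3 arrays of triple Bcat, the masses and the ventral tumours. Over the 39 arrays the median SD of the barrier genes was 2.63, against 0.33 for all genes, and 33 of the 38 were among the 5% of genes with the largest SD. Within the quadruple group alone the median SD was 2.36 against 0.31, and within triple K5Cre 2.89 against 0.29. Since the list was drawn up with earlier results of these data known, these contrasts with all genes are not independent of the data. The 3 ventral tumours, all from 1 mouse, differed least, with a median SD of 0.62 against 0.18. Repetin (Rptn) had the largest spread among quadruple arrays (SD 4.10) and Krtdap among triple K5Cre arrays (SD 4.71).

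**Figure D2:**
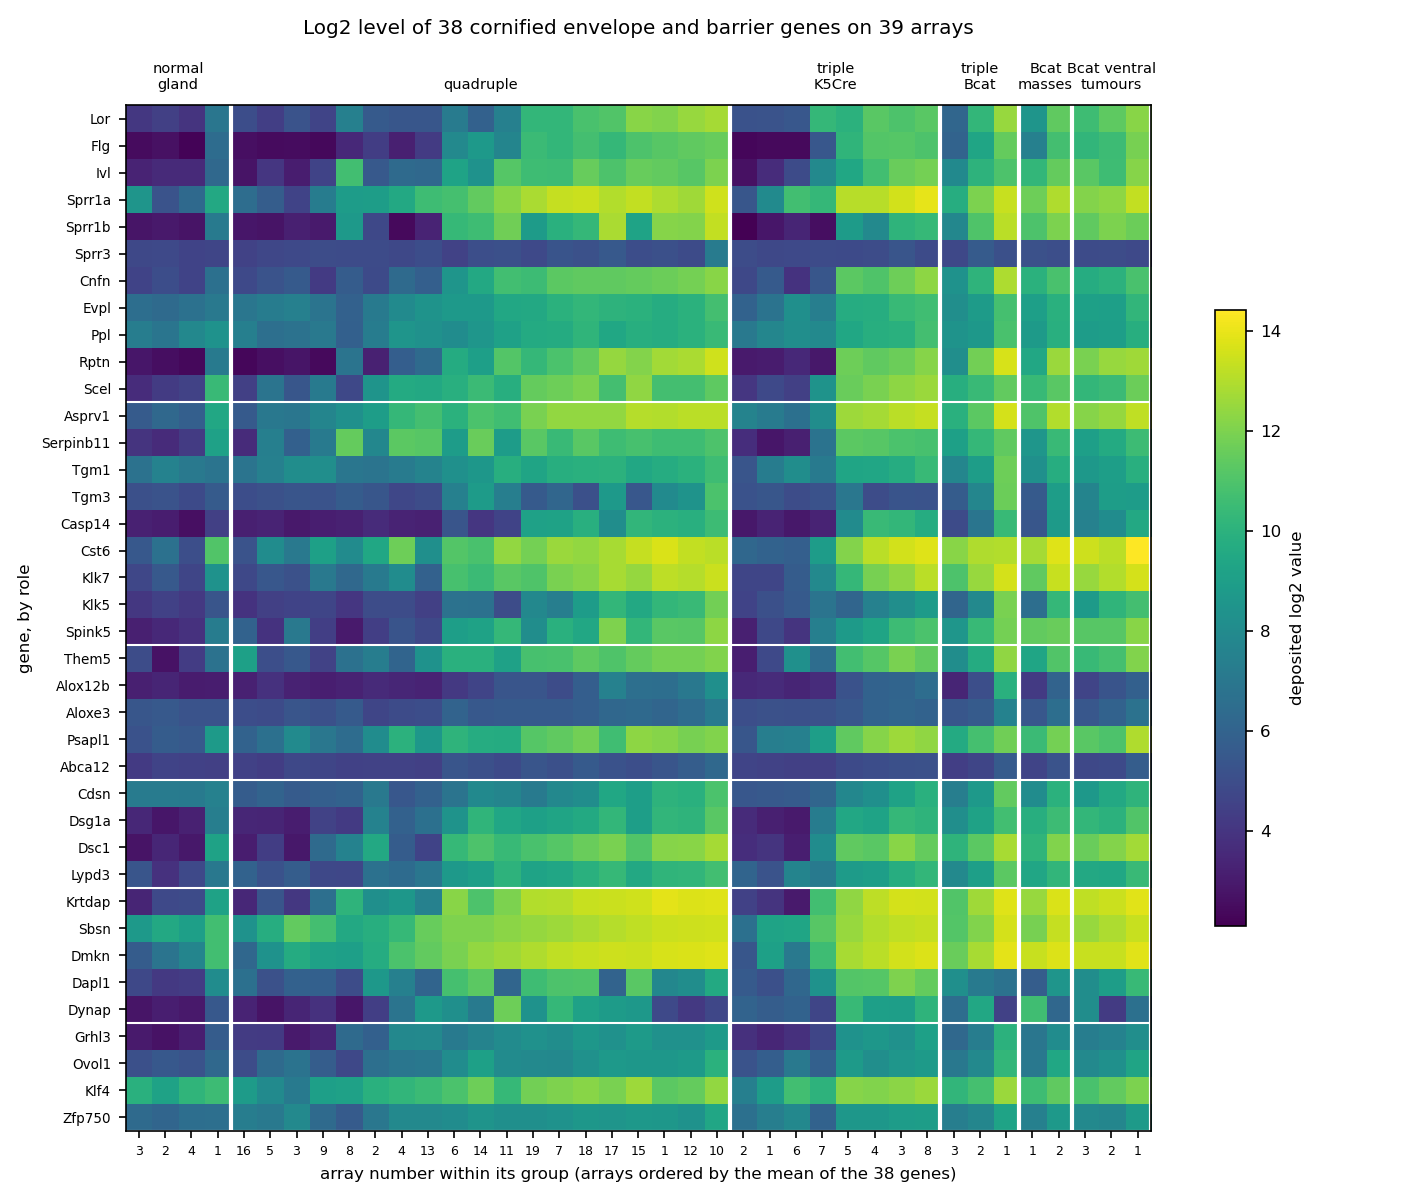
Deposited log2 level of each of the 38 genes (rows, grouped by role with white lines) on each array (columns, ordered within a group by the mean of the 38). Most rows change together along a group, while Sprr3, Abca12 and Aloxe3 stay within a narrow range and Dynap and Dapl1 are low on some arrays where the other genes are high.

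Envelope proteins come first. Loricrin (Lor), the main protein of the mature envelope, was at 6.95, 4.43, 4.12 and 3.95 on glands 1 to 4. On quadruple arrays Lor ran from 4.41 through a median of 7.47 to 12.74, and on triple K5Cre from 5.20 through 10.17 to 11.28. It was at 12.51, 10.25 and 6.19 on triple Bcat, at 8.54 and 11.41 on the masses and at 12.24, 11.37 and 10.58 on the ventral tumours. Gland 1 was the high gland, and only the masses and ventral tumours had every array above it. Of the other probe sets of Lor, 1 stayed between 3.42 and 6.18, with a difference of quadruple and gland means of 0.57 against 3.34 for the set used, and the other gave 3.84.

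Filaggrin (Flg), which bundles keratin filaments, was at 6.46 in gland 1 and at 2.67, 2.46 and 2.24 in the other glands. The quadruple arrays ran from 2.36 to 11.57 with a median of 7.89, and 11 of 19 were above gland 1. Triple K5Cre arrays ran from 2.31 to 11.17 with a median of 7.80. Thus Flg spanned from the level of glands 2 to 4 to the level of the ventral tumours (11.91, 10.55 and 10.23) within a single genotype.

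Involucrin (Ivl), an early scaffold of the envelope, was at 6.26, 3.56, 3.35 and 3.57 on the glands and ran from 2.76 through a median of 10.55 to 12.002 on quadruple arrays, 14 of 19 of which were above gland 1. On triple K5Cre it ran from 2.67 through 8.67 to 11.87. The difference of quadruple and gland means was 4.35 for this probe set and 2.51 for another. All arrays of triple Bcat (10.97, 10.07 and 7.95), the masses (10.24 and 11.50) and the ventral tumours (12.17, 10.59 and 11.25) were above every gland.

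The small proline-rich proteins are flexible cross-bridges of the envelope, and the 3 of them behaved differently. Sprr1b was at 7.15, 2.97, 2.78 and 2.77 on the glands, 2.42 to 13.29 on quadruple arrays (median 9.23) and 2.10 to 10.34 on triple K5Cre (median 5.66). Sprr1a, at 9.56, 5.23, 8.53 and 6.32, was already variable between glands, and it reached 13.54 on a quadruple and 13.96 on a triple K5Cre array. Sprr3 stayed between 4.52 and 7.21 over all 39 arrays, with gland levels of 4.66, 4.84, 4.79 and 4.59 and a highest value on quadruple 10. The gene thus showed little of the range of its chromosomal neighbours on this array.

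Repetin (Rptn), a filaggrin-like envelope protein, went from 7.19, 2.56, 2.86 and 2.38 on the glands to 13.67, 11.80 and 8.17 on triple Bcat and 12.68, 12.50 and 11.92 on the ventral tumours. Its 2 other probe sets stayed between 2.52 and 4.10 on all arrays, so its range rests on 1 probe set. Cornifelin (Cnfn) ran from 4.21 to 12.22 and sciellin (Scel) from 4.43 to 12.37 on quadruple arrays. Sciellin was at 10.45 in gland 1 and at most 4.53 in the other glands, the widest gap between glands among the 38 genes, and its other probe set stayed near 2.66. The plakins envoplakin (Evpl) and periplakin (Ppl), which anchor the envelope to desmosomes and keratin, had narrower quadruple ranges, 5.94 to 10.73 and 5.86 to 10.45.

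Of the cross-linking and processing enzymes, transglutaminase 1 (Tgm1) was at 6.82, 7.55, 6.76 and 7.06 on the glands and ran from 6.82 through 8.61 to 10.59 on quadruple arrays. Transglutaminase 3 (Tgm3) was at 5.64, 5.23, 5.12 and 4.88 on the glands and stayed at 4.97 to 6.97 on triple K5Cre, where 1 of 8 arrays exceeded the highest gland, although 4 of those arrays were high in most other barrier genes. On quadruple arrays Tgm3 ran from 4.74 through 5.61 to 10.92 and on triple Bcat it was at 11.64, 7.76 and 5.66. Its other probe set gave a difference of quadruple and gland means of 0.29, against 1.29 for the set used. Caspase-14 (Casp14), which helps break down filaggrin, was at most 4.46 on the glands and reached 10.53, 10.46 and 10.41 on quadruple, triple K5Cre and triple Bcat arrays; a cross-hybridising probe set of the gene stayed between 5.52 and 6.93.

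Asprv1, the retroviral-like protease that processes filaggrin, was at 9.47, 6.26, 5.62 and 5.84 on the glands and ran from 5.57 through 10.76 to 13.17 on quadruple arrays, 13 of 19 of which were above gland 1. Serpinb11, a serpin, was at 9.13, 3.64, 3.96 and 4.22 on the glands and ran from 3.60 through 10.60 to 11.62 on quadruple arrays. In triple K5Cre Serpinb11 ran from 2.85 through 8.82 to 11.30. Both genes were thus as low as glands 2 to 4 on some arrays and above gland 1 on most quadruple arrays.

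The desquamation proteases Klk5 and Klk7 and their inhibitor Spink5 were also low in glands 2 to 4 and high on part of the other arrays. Klk7 was at 8.41, 5.56, 4.71 and 4.68 on the glands, 4.78 to 13.43 on quadruple arrays, 13.60, 12.50 and 10.96 on triple Bcat and 13.64, 12.98 and 12.52 on the ventral tumours. Spink5 was at 7.25 in gland 1, at most 3.84 in the other glands, and 11.45 and 11.59 on the masses. Cystatin M/E (Cst6), an inhibitor of cathepsins and legumain, was at 11.08 in gland 1 and at 6.68, 5.48 and 5.05 in the others. Every array of triple Bcat, the masses and the ventral tumours was above every gland for Klk5, Klk7, Spink5 and Cst6.

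Of the lipid genes, Alox12b (12R-lipoxygenase) was at 3.07 to 3.36 on the glands and ran from 3.14 through 4.61 to 8.22 on quadruple arrays, and it was highest on triple Bcat 1 (9.92). Its partner Aloxe3 stayed within 4.70 to 7.57 on all arrays, and the lamellar granule transporter Abca12 within 4.20 to 6.25. Them5, an acyl-CoA thioesterase, was at 6.75, 2.71, 4.97 and 4.29 on the glands and ran from 4.52 through 9.91 to 12.10 on quadruple arrays. The difference of quadruple and gland means was 4.43 for this probe set of Them5, 3.42 for another and 0.79 for the third, which stayed between 3.03 and 6.63. Psapl1, a prosaposin-like gene, ran from 5.996 through 10.005 to 12.33 on quadruple arrays and from 5.40 through 10.21 to 12.63 on triple K5Cre, against 8.79, 5.70, 5.20 and 5.55 on the glands.

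Of the adhesion genes, desmocollin 1 (Dsc1), a cadherin of suprabasal desmosomes, was at 9.18, 3.42, 2.77 and 2.88 on the glands and ran from 2.90 through 10.41 to 12.74 on quadruple and from 3.15 through 9.69 to 12.23 on triple K5Cre arrays. Its other probe set gave a difference of quadruple and gland means of 2.18, against 4.37 for the set used. Desmoglein 1 alpha (Dsg1a) was at 7.39, 2.87, 3.49 and 3.23 on the glands and at 11.08, 10.03 and 10.26 on the ventral tumours. Corneodesmosin (Cdsn), the glue cut during shedding, was flat on the glands (7.51, 7.23, 7.23 and 7.19). Its quadruple arrays ran from 5.44 through 7.15 to 10.93, on both sides of the glands. Lypd3, a membrane-anchored surface protein of stratified epithelia, was at 7.05, 3.86, 5.34 and 4.82 on the glands and reached 10.71 on a quadruple array.

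Of the secreted and other epidermal genes, Krtdap (keratinocyte differentiation-associated protein) was at 9.19, 4.81, 3.39 and 4.90 on the glands and ran from 3.50 through 11.98 to 13.91 on quadruple and from 2.97 through 11.53 to 13.61 on triple K5Cre arrays. Dermokine (Dmkn) was at 10.69, 6.83, 5.69 and 7.71 on the glands and ran from 6.21 through 12.43 to 13.83 on quadruple arrays. Suprabasin (Sbsn) was at 10.70, 9.56, 8.76 and 9.07 on the glands. These 3 neighbours were above every gland on every array of triple Bcat, the masses and the ventral tumours.

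Dapl1 and Dynap did not follow that pattern. Dapl1 was at 8.12, 4.15, 4.75 and 4.27 on the glands and at 6.74, 7.14 and 8.23 on triple Bcat, where the array lowest in most other barrier genes was the highest. Dynap was at 5.49, 3.14, 2.80 and 2.97 on the glands, at 4.498, 9.48 and 6.52 on triple Bcat and at 10.64 and 6.23 on the masses, again highest on arrays that were not highest in the other genes.

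Of the regulators, Grhl3, a Grainyhead-like factor needed for barrier formation, was at 5.67, 2.71, 3.00 and 3.14 on the glands and ran from 3.01 through 7.89 to 8.80 on quadruple arrays, 15 of 19 of which were above gland 1. Zfp750, a zinc finger factor of terminal differentiation, was at 6.60, 6.13, 6.34 and 6.55 on the glands and ran from 5.63 through 8.23 to 9.39, with 17 of 19 quadruple arrays above every gland. Ovol1 ran from 4.78 through 7.91 to 9.99 on quadruple arrays. Klf4, which is also expressed outside the epidermis, was at 10.55, 9.20, 9.90 and 10.15 on the glands and ran from 7.14 to 12.62 on quadruple arrays, below as well as above the glands.

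The first question of the design is how the breast tissue of each genotype differs from normal mammary gland. Quadruple tissue was higher than gland in 6 of the 38 genes by limma with Benjamini-Hochberg adjustment over all genes (adjusted p under 0.05), and lower in 0; over all genes 15.4% were called, 5.7% as higher and 9.66% as lower. These were the protease Asprv1, the serpin Serpinb11, the thioesterase Them5, Dmkn, Grhl3 and Zfp750. The fitted difference was 4.23 for Serpinb11 (SE 1.39, adjusted p = 0.0336), 4.23 for Them5 (SE 1.39, adjusted p = 0.0341) and 3.67 for Asprv1 (SE 1.28, adjusted p = 0.0468). It was 3.60 for Dmkn (SE 1.23, adjusted p = 0.0410), 3.34 for Grhl3 (SE 1.06, adjusted p = 0.0261) and 1.54 for Zfp750 (SE 0.51, adjusted p = 0.0344).

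By role, 0 of 11 envelope proteins, 2 of 9 enzymes and inhibitors, 1 of 5 lipid genes, 0 of 4 adhesion genes, 1 of 5 secreted genes and 2 of 4 regulators were called as higher in quadruple tissue. The fitted difference was above 0 for 38 of 38 genes, from 0.14 (Cdsn) to 4.63 (Krtdap), with a median of 3.05 against 0.01 over all genes. The median SE was 1.26 against 0.17, and differences as large as those called did not pass: Rptn differed by 4.48 (adjusted p = 0.153), Krtdap by 4.63 (adjusted p = 0.0889), Ivl by 4.06 (adjusted p = 0.0857) and Flg by 3.61 (adjusted p = 0.215), by the same limma fit. At an unadjusted p under 0.05 stood 26 of the 38 genes and 27.8% of all genes. For 0 of the 38 was every quadruple array above every gland (0.654% of all genes) or below every gland (1.85%).

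**Figure D3:**
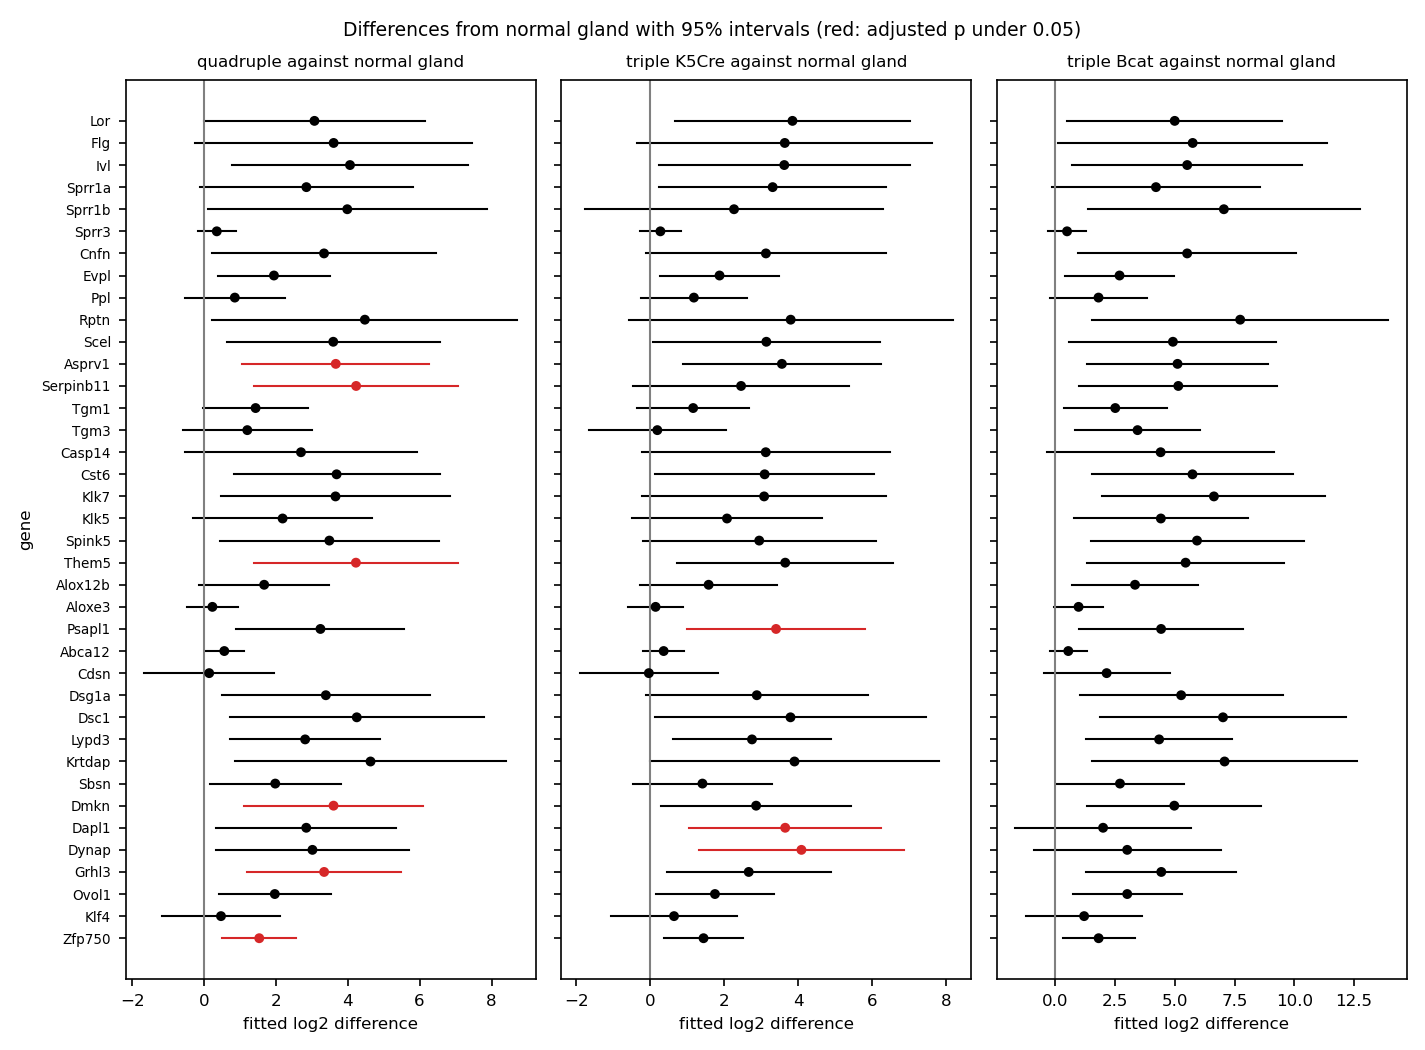
Fitted log2 difference from normal gland for each gene with its 95% interval, in quadruple, triple K5Cre and triple Bcat tissue; red marks an adjusted p under 0.05 (limma, Benjamini-Hochberg over 18194 genes). The 6, 3 and 0 red genes lie among others with differences of similar size; in quadruple tissue Krtdap (4.63) and Rptn (4.48) differ more than any red gene, and in triple K5Cre tissue Dynap, which is red, differs most (4.09).

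These calls depended on single glands. In quadruple tissue 2794 of the 18194 genes were called in all. Without gland 1, 10 barrier genes were called (2253 genes in all), without gland 2, 0 (2057), without gland 3, 1 (1671), and without gland 4, 0 (2104). With array weights 33 barrier genes were called, but so were 6749 genes in all. Without the 3 arrays low in Xist, which include gland 3, 1 was called (1741 in all). When the mean levels of adipocyte and muscle genes entered the fit as covariates, 0 were called, with a median difference of 0.39 and 62 called genes in all. The adipocyte mean sets the glands apart from all arrays but quadruple 2 and quadruple 9. Covariates and group can therefore hardly be told apart in this fit. Without quadruple 2 and quadruple 9, 43 of 46 values of barrier genes in quadruple comparisons kept direction and side of the threshold. A call was gained by 3 and lost by 0. The number called over all genes in that fit is not given here.

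Triple K5Cre tissue was higher than gland in 3 of the 38 genes and lower in 0, where 17.2% of all genes were called, 7.44% as higher and 9.79% as lower. The 3 were Psapl1 (difference 3.41, SE 1.19, adjusted p = 0.0434), Dapl1 (3.65, SE 1.28, adjusted p = 0.0435) and Dynap (4.09, SE 1.36, adjusted p = 0.0331), by limma. The differences of 37 of 38 genes were above 0, with a median of 2.88, and 17 stood at an unadjusted p under 0.05 (29.5% of all genes). Every array was above every gland for 0 of the 38 (4.82% of all genes) and below for 0 (5.66%). The fit shares its 4 glands with the quadruple comparison. Loricrin differed by 3.85 (adjusted p = 0.0868), Tgm3 by 0.19 and Cdsn by -0.04, a sign that turned in several other fits. In triple K5Cre tissue 3134 genes were called in all. With 0 barrier genes called were the fits without a block for the animal (2556 genes in all), without gland 2 (2488), 3 (1770) or 4 (2360), and with the adipocyte and muscle covariates (43 in all, median difference of the barrier genes 0.09). With a mean per animal (2558 in all) or cyclic loess (3085) 1 barrier gene was called. Without the tertile of genes with the lowest mean (2857) or without gland 1 (2655) 5 were called, and with array weights 32, where 6366 genes were called in all.

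Triple Bcat tissue, with 3 arrays of 2 animals, had 0 barrier genes called in either direction by limma, where 7.12% of all genes were called (1.74% as higher and 5.38% as lower), with 28 of the 38 at an unadjusted p under 0.05 (22.1% of all genes). The median difference from gland was 4.42, from 0.49 (Sprr3) to 7.74 (Rptn), and the smallest adjusted p was 0.0702, for Lypd3 (difference 4.35, SE 1.497). Every triple Bcat array was above every gland for 27 of the 38 genes, where this held for 12.4% of all genes, and every array was below every gland for 0 of the 38 (16.1% of all genes). Against 1296 genes called in all in the reported fit, a mean per animal called 3 barrier genes (1306 in all), the fits without gland 1 (1172) or triple Bcat 3 (1279) called 2, and array weights called 32 (6581 in all).

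The Bcat +/- masses also had 0 called barrier genes by limma (7.28% of all genes were called, 2.6% as higher and 4.68% as lower), 23 of them at an unadjusted p under 0.05 (21.2% of all genes), and a median difference of 4.60. Spink5 differed by 7.03 (SE 2.36, adjusted p = 0.0631) and Krtdap by 7.56 (SE 2.93, adjusted p = 0.113). Both arrays were above every gland for 33 of 38 genes, where 22.2% of all genes did the same, and below every gland for 0 (22.5% of all genes). Against 1324 genes called in all in the masses, 2 barrier genes were called with a mean per animal (1496 in all), 3 without gland 1 (1179) and 27 with array weights (4226).

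The ventral tumours, 3 samples of 1 mouse, had 0 called barrier genes by limma (4.03% of all genes were called, 0.813% as higher and 3.22% as lower), 25 at an unadjusted p under 0.05 (18.7% of all genes) and a median difference of 4.98. Rptn differed by 8.65 (SE 3.40, adjusted p = 0.147) and Krtdap by 7.95 (SE 3.03, adjusted p = 0.133). All 3 arrays were above every gland for 33 of 38 genes, against 16.8% of all genes, and below every gland for 0 (20.4% of all genes). Since these tumours come from 1 mouse, the spread between animals behind their SEs and p-values is that of the other groups, and this mouse is assumed to vary like those. Against 734 genes called in all, the fit without the block, which treats the 3 tumours as separate animals, called 16 barrier genes (2009 in all), array weights called 30 (5717) and the fit without gland 1 called 1 (686).

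The second question is how the genotypes with masses or breast tissue differ from one another. Between quadruple and triple K5Cre tissue, which differ by Bcat, limma called 0 barrier genes and 0% of all genes, and 0 of the 38 stood at an unadjusted p under 0.05 (4.46% of all genes). The median difference was 0.20, with Serpinb11 highest at 1.77 (95% interval -0.44 to 3.98) and Dynap lowest at -1.07. The intervals were wide, with a median SE of 0.98 against 0.13 over all genes.

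Quadruple tissue was lower than triple Bcat tissue in fitted value for 35 of the 38 genes (median -1.41), but limma called 0, with 0.033% of all genes called, all as lower; Tgm3 differed by -2.24 (95% interval -4.46 to -0.02, adjusted p = 0.588) and was the only barrier gene at an unadjusted p under 0.05 (8.39% of all genes). Against the masses the median was -1.58 with 0 called (0.214% of all genes, 0.0385% as higher and 0.176% as lower), and Sprr1b differed by -3.63. Against the ventral tumours it was -2.02 with 0 called (0.143% of all genes, 0.011% as higher and 0.132% as lower), and Spink5 differed by -3.57. In these last pairs 0 barrier genes stood at an unadjusted p under 0.05, where 8.09% (masses) and 9.43% (ventral tumours) of all genes did.

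Triple K5Cre against triple Bcat tissue also gave 0 called barrier genes by limma, where 0.0385% of all genes were called, all as lower. The smallest adjusted p was 0.348, for Tgm3 (difference -3.25, 95% interval -5.61 to -0.89), the single barrier gene at an unadjusted p under 0.05 (12.1% of all genes). Sprr1b differed by -4.79.

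Samples of 1 animal could differ as much as animals did. One quadruple mouse gave quadruple 8, 9 and 10, whose means over the barrier genes were 6.36, 5.73 and 11.13. The range between these 3 arrays was over 2 for 36 of 38 genes (12.7% of all genes), with a median of 5.54 against 0.59 over all genes. Rptn was at 6.83, 2.40 and 13.52, Flg at 3.51, 2.36 and 11.57, Spink5 at 3.00, 4.41 and 12.32 and Casp14 at 3.23, 3.12 and 10.53. Quadruple 10 was the highest of the 3 for every gene except Serpinb11, which was highest on quadruple 8 (11.49, 7.17 and 10.99), and Ivl was nearly as high there (10.69, 4.59 and 12.002).

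**Figure D4:**
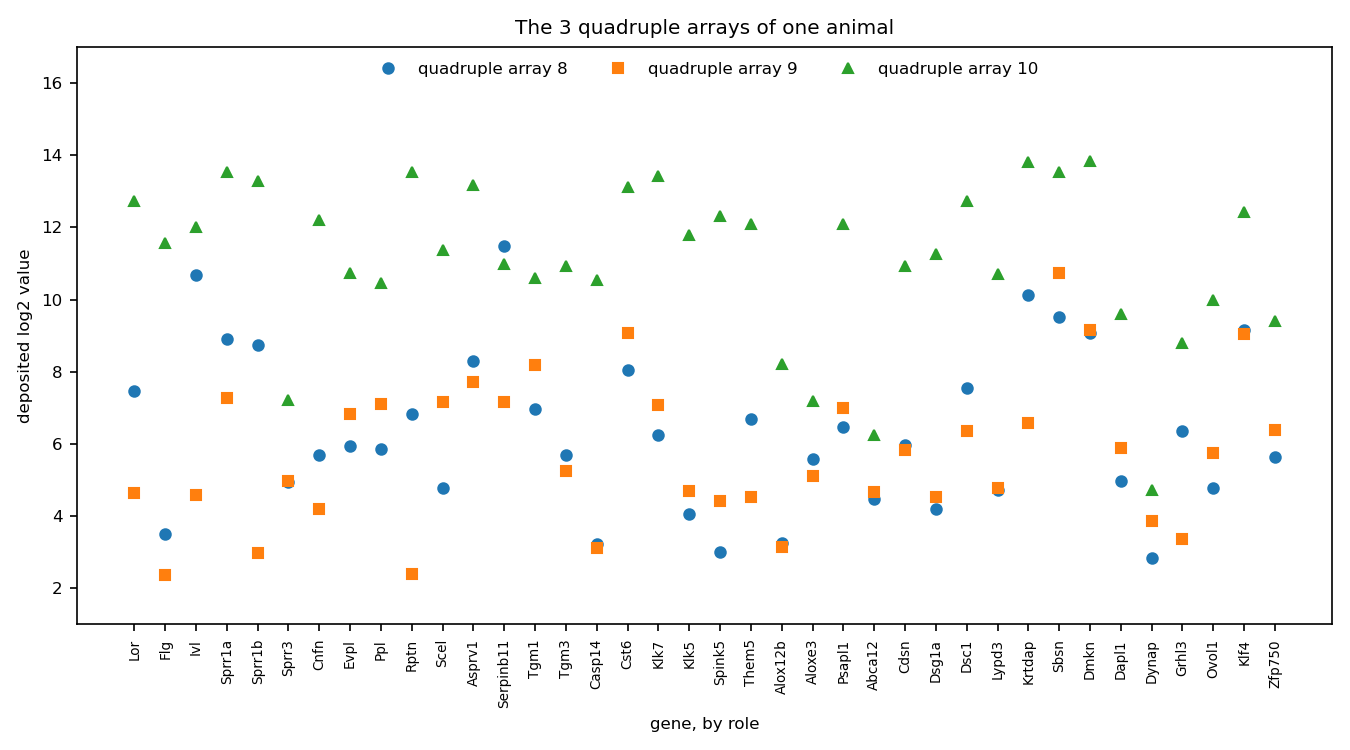
Log2 level of each barrier gene on the 3 arrays of 1 quadruple mouse (circles quadruple 8, squares quadruple 9, triangles quadruple 10). Quadruple 10 lies above the other arrays for most genes, by up to 11.12 for Rptn, and Serpinb11 and Ivl are high on quadruple 8 as well.

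Marker lists differed between those 3 arrays too. Quadruple 9 had the adipocyte mean of 11.29, the high muscle mean given above and a milk protein mean of 14.15, and quadruple 8 had the lowest luminal mean of all arrays (7.68). On quadruple 10 the mean of 19 hair follicle genes was 10.31, against 5.09 and 6.43 on quadruple 8 and 9. The part of these tissues in the differences was not tested.

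Other repeated samples of an animal were closer. Quadruple 1 and 12, from 1 mouse, had means of 10.38 and 10.42 and a median range of 0.18, the smallest of any animal and near the 0.11 over all genes. Quadruple 18 and 19 had means of 10.17 and 9.58, triple Bcat 2 and 3 had 9.46 and 8.02, and the 3 ventral tumours lay between 9.67 and 10.75.

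For 2 triple K5Cre mice both breast tissue and normal gland were measured, and they differed from each other. In the mouse of triple K5Cre 3 and gland 4, the mean was 10.42 in breast and 4.91 in gland, all 38 genes were higher in breast, 34 by more than 2 (2.64% of all genes), and Dsc1 differed most (9.35). In the mouse of triple K5Cre 2 and gland 3, the means were 4.81 and 4.86, and 22 of 38 genes were higher in breast, with Dynap higher by 3.20 and Sprr1a lower by 3.15 (difference -3.15). Both arrays of this second mouse were low in Xist. A paired fit of these 2 animals (the animal as block) called 0 barrier genes and 0 genes in all. With so few arrays a gene could hardly be called, so this is no evidence of absent differences.

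The 4 glands were not alike. Gland 1, from a triple Bcat mouse, had the highest level of the glands in 33 of the 38 genes, against 23.4% of all genes. Gland 2 was highest in the other 5. Gland 1 exceeded the other 3 by more than 1 in 25 of the 38 genes, against 2.10% of all genes, with sciellin apart by 5.91. Its hair follicle mean was 8.06, against 4.44 to 4.57 on glands 2 to 4, its milk protein mean was 7.90 against 11.41 to 13.99, and its basal epithelium mean was 10.39 against 8.57 to 9.44. The part of hair follicle or skin tissue in the level of gland 1 was not tested.

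Hair follicle genes were also high on some arrays rich in barrier genes, with means of 10.87 on quadruple 14, 10.31 on quadruple 10, 9.01 on ventral tumour 2 and 8.89 on triple K5Cre 5. On other such arrays they were much lower: 4.71 on quadruple 7, 5.07 on triple K5Cre 8 and 5.20 on quadruple 18, where the barrier means were 9.87, 10.61 and 10.17. The list mean of melanocyte genes reached at most 4.21 on any array. The luminal mean ran from 10.44 to 11.66 on the glands and from 7.71 to 10.36 on triple Bcat, and it reached 12.15 on triple K5Cre 6, an array low in barrier genes (5.68).

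**Figure D5:**
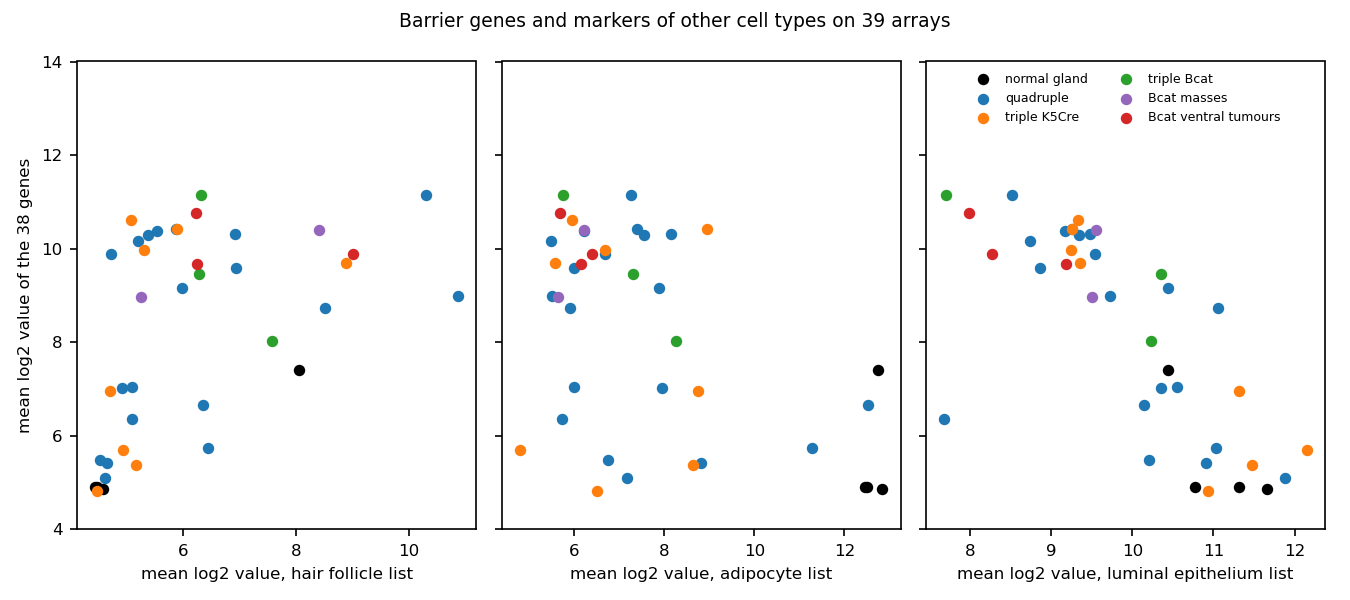
Mean level of the 38 barrier genes on each array against the mean of hair follicle, adipocyte and luminal epithelium genes, coloured by group. Arrays rich in barrier genes occur at hair follicle means from 4.71 to 10.87, and the glands stand apart at the right of the adipocyte panel together with 2 quadruple arrays.

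Other genes of the pathway, from lists kept apart from the 38, are given next. Of 48 further envelope genes (late cornified envelope, Sprr2 and related genes), 32 were measured, and 1 passed in quadruple tissue against gland by limma: Calml3, a calmodulin-like protein of keratinocytes (difference 3.25, adjusted p = 0.0369). Calm4 (4.46, adjusted p = 0.0911) and Capns2 (3.13, adjusted p = 0.0977) did not. The 32 differences were all above 0 with a median of 2.45, and in triple Bcat tissue the median was 4.93 with 0 called.

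Of 21 measured barrier lipid genes, 0 were called as higher and 1 as lower in quadruple tissue: Dgat2, a triglyceride synthase (difference -3.20, adjusted p = 0.00231), which is also abundant in fat. Elovl4, which makes very long acyl chains, differed by 3.22 (adjusted p = 0.0704). Of 13 suprabasal and stress keratins 0 passed, with a median difference of 1.79: Krt16 differed by 4.63 (adjusted p = 0.0577), Krt6a by 3.57 (adjusted p = 0.0589) and Krt6b by 4.89 (adjusted p = 0.0863), by limma. Krt10, the keratin of early differentiation, ran from 6.40 through 11.07 to 14.06 on quadruple arrays against 6.87 to 9.92 on the glands (difference 2.67, adjusted p = 0.232).

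Of 19 measured epidermal regulators, 5 were called as higher and 1 as lower in quadruple tissue, among them Cebpb (0.77, adjusted p = 0.00295), Notch1 (0.92, adjusted p = 0.0136) and Cebpa (-1.67, adjusted p = 0.00432), by limma. Among 9 basal epithelial genes 2 were called as higher, including Lgals7 (2.74, adjusted p = 0.00198) and Itgb4 (1.20, adjusted p = 0.00432), and Dst was lower (-1.53, adjusted p = 0.00857). Krt5 differed by 1.55 (adjusted p = 0.135) and Krt14 by 2.17 (adjusted p = 0.107). Proliferation marker Mki67 was higher in quadruple tissue by 2.07 (SE 0.33, adjusted p = 2.76e-05), Axin2, a target of beta-catenin, differed by 0.32 (adjusted p = 0.821) and Ctnnb1, the beta-catenin gene, by 0.18 (adjusted p = 0.384).

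Marker lists of other cells moved in the same comparison. Adipocyte genes were lower in quadruple tissue in 10 of 10 and skeletal muscle genes in 11 of 11 by limma, and 3 of 7 fibroblast genes were lower. Hair follicle genes had 0 of 19 called, sebaceous gland genes 1 higher (Krt79, 3.95, adjusted p = 0.0335) and 1 lower (Mogat1, -2.75, adjusted p = 0.000171) of 6, and luminal genes 1 lower of 11 (Esr1, with group means of 7.49 in quadruple and 10.47 in gland, adjusted p = 0.00847). Neutrophil genes had 0 of 6 called in quadruple tissue. Called as higher than gland were 3 of 6 in triple Bcat tissue, 2 in the masses and 2 in the ventral tumours. Their list mean was 10.39 to 11.07 on triple Bcat, against 6.22 to 7.67 on the glands. It was 10.14 to 10.64 on the masses and 10.16 to 10.96 on the ventral tumours.

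Among animals of the quadruple genotype, Krt10, Krt5, Axin2 and Mki67 were each correlated with each barrier gene. Because the animals fall into separate clusters, no pooled correlation was computed: 6 animals with a barrier mean under 8 and 8 with a mean over 8 were taken apart, and the mouse with arrays on both sides was left out. The split rests on the mean of the correlated barrier genes themselves. Each r therefore holds only within its cluster and the limited range there. In the 8 animals over 8, the median Pearson r with Krt10 was 0.74, and 35 of 38 were above 0. No share over all genes is at hand for this count or the correlation counts below. They are therefore not read as particular to the barrier genes. Exact permutation tests, 304 in all, gave 2 that passed Benjamini-Hochberg adjustment. Flg had r = 0.973 (exact p = 4.96e-05, adjusted p = 0.0113, Spearman rho 0.976 with exact p = 0.000397, n = 8) and Them5 had r = 0.966 (exact p = 7.44e-05, adjusted p = 0.0113, rho 0.976 with exact p = 0.000397, n = 8). Leaving out the 2 animals farthest from the median of Krt10, r was 0.948 and 0.919. Neither passed, but with 6 animals left an exact p can hardly become small enough to pass.

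The median r in these 8 animals was 0.35 with Krt5, -0.21 with Axin2 and -0.53 with Mki67, and 0 of these passed adjustment by the exact permutation test. In the 6 animals under 8, the median r was 0.36 with Krt10, 0.18 with Krt5, 0.61 with Axin2 and 0.31 with Mki67, with 0 passing. Above 0 were 30, 24, 32 and 26 of the 38, in that order, and 5, 1, 10 and 0 had an unadjusted exact p under 0.05. So few animals leave no exact p small enough for a single pair to pass over 304 tests. The lack of passing pairs there is therefore no evidence of absent association. By Spearman's rho 0 of the 304 passed adjustment, and 47 had an unadjusted exact p under 0.05 by Pearson's r.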

How the data were processed

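Per the labels' protocols, RNA (Qiagen RNeasy) of 39 mouse tissues was labelled for Affymetrix arrays by 3' IVT Express. The authors deposited 1 table of log2 values for 45101 probe sets, which RMA produced per the submitters' processing notes (version not given in the sources used here). RMA corrects background, normalizes between arrays and summarises probes, so low values are compressed and were not separated from background. Values ran from 1.65 to 14.61, and 0 columns were left unused. Arrays have no read depth; their number limits the precision.

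Genes were assigned by the platform annotation, with symbols updated through RefSeq (GRCm38.p6): 34958 had 1 gene, 932 several and 9211 none, and 204 kept the platform's symbol. Each of 18194 genes was read from its probe set with the highest mean, cross-hybridising sets being used only for 100 genes without another. Several probe sets were found for 12 of the 38 genes, and the report gives the others of some of these genes, several of which varied less. The 38 genes, their grouping by role, the other lists and the tests were chosen with earlier results of these data known. From each other list at most 3 genes are named, those with the smallest p in quadruple against normal gland, and Krt10, Krt5, Krt14, Krt8, Axin2, Mki67 and Ctnnb1 as references. Xist was added after its values were seen.

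Groups follow the genotype and tissue labels, and array numbers only name samples. One limma fit of 6 group means took in all 39 arrays of 30 animals, with the animal, read from the titles, as a random block (consensus correlation 0.329) and an intensity trend. A fitted difference therefore need not equal the difference of group means. A call needed an adjusted p (Benjamini-Hochberg, all genes) under 0.05 within 1 of 10 comparisons; the 5 with normal gland share the same 4 arrays. Samples of 1 animal are not independent, and samples of different animals were taken as separate.

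For 2 animals breast and gland were both measured, which is the only pairing in the design; it comes from the shared identifiers and was tried as a paired fit of those animals. The correlations had been planned over 15 pooled quadruple animals and were run within 2 clusters instead, since the animals fell apart in the barrier genes. Alternatives were no block, a mean per animal, leaving out the tertile of genes with the lowest mean, cyclic loess, array weights, averaging all probe sets of a gene, no intensity trend, and leaving out each array of the groups of 2 to 4. Chosen later, with the data seen, were fits leaving out the 3 arrays with Xist under 8 or the 2 quadruple arrays with an adipocyte mean over 11, and fits with adipocyte and muscle means as covariates. The fit was tested on simulated data. Software was limma 3.58.1 under R 4.3.3, and scipy 1.17.1, pandas 2.3.3 and numpy 2.4.6 under Python 3.11.15.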

Additional observations from a re-analysis of the deposited data

Results flagged for a closer look

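A sample stood far from the others of its group in 19 of 78 sets of values examined, where chance alone gives about 1 in 20. Of these, 17 concern gland 1, whose values are those of 1 array: Lor 6.95, Flg 6.46, Ivl 6.26, Sprr1b 7.15, Rptn 7.19, Scel 10.45, Asprv1 9.47, Spink5 7.25, Serpinb11 9.13, Psapl1 8.79, Cdsn 7.51, Dsg1a 7.39, Dsc1 9.18, Dapl1 8.12, Dynap 5.49, Grhl3 5.67 and the mean of the barrier genes, 7.40. In each case the value lay above all other glands, and the sets are not independent, since they share the array. The other 2 are high values on triple K5Cre arrays: Sprr3 at 5.37 on triple K5Cre 3, where the next array was at 4.98, and Tgm3 at 6.97 on triple K5Cre 5, where the next was at 5.41.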

How the results depend on the processing

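The counts of called barrier genes depended on the fit and on single glands, while the fitted directions against normal gland mostly did not. Of 2945 values of single genes under an alternative, 2646 kept direction and side of the threshold. A further 58 lost and 196 gained a call, and 45 changed sign. These values cover every barrier gene left in a fit for the comparisons with gland. For comparisons between the other groups they cover only the barrier genes with the smallest p. Changes of direction in the remaining genes of those comparisons were not counted. Against normal gland, where the reported counts were 6 in quadruple, 3 in triple K5Cre and 0 in triple Bcat tissue, the masses and the ventral tumours, array weights gave 33, 32, 32, 27 and 30. Over all genes they called 6749, 6366, 6581, 4226 and 5717, against 2794, 3134, 1296, 1324 and 734 reported. The adipocyte and muscle covariates gave 0 in quadruple and in triple K5Cre tissue (62 and 43 genes in all). These covariates nearly set the glands apart, so covariates and group can hardly be told apart in these fits. Leaving out 1 gland gave 0 to 10 in quadruple tissue (without gland 1, 10) and 0 to 5 in triple K5Cre tissue, and leaving out 1 array gave 0 to 2 in triple Bcat tissue, 0 to 3 in the masses and 0 to 1 in the ventral tumours. The count in quadruple tissue was 1 without the arrays low in Xist, which include gland 3. In triple K5Cre tissue it was 0 without the block, 1 with a mean per animal and 1 with cyclic loess. Without the tertile of genes with the lowest mean it was 5. In the paired fit with the animal as block it was 0 (0 genes in all), where so few arrays could hardly give a call. A mean per animal gave 3 in triple Bcat tissue and 2 in the masses, and the fit without the block gave 16 in the ventral tumours. Array weights, which ran from 0.263 to 8.24, also called 1 barrier gene as lower in quadruple against triple Bcat (2557 genes in all), 1 in quadruple against the ventral tumours (3759) and 1 in triple K5Cre against triple Bcat (2551). The correlation count went from 2 to 0 without the 2 farthest animals. So few animals were then left that a pair could hardly pass, so this change does not test the 2 correlations. The cause of the other changes was not tested.

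Cdsn in triple K5Cre tissue, at -0.04, was 0.76 with array weights, 0.03 without gland 1, 0.22 without gland 3, 0.11 in the paired fit with its block and 0.43 without the arrays low in Xist, and in quadruple tissue it ran from -0.15 (without gland 4) to 0.37 (without gland 3) when 1 gland was left out. Klf4 in triple K5Cre tissue was -0.18 in the paired fit. The other 38 changes of sign came with the adipocyte and muscle covariates, where limma called 0 barrier genes in each comparison with gland; the median SE of the barrier genes in quadruple against gland was 1.84 there and 1.26 without covariates. In quadruple tissue these were Flg -0.029, Sprr1a -0.0023, Sprr1b -1.04, Rptn -1.20, Cnfn -0.20, Ppl -0.43, Tgm3 -0.39, Aloxe3 -0.57, Abca12 -0.058, Cdsn -1.02 and Klf4 -1.17. In triple K5Cre tissue these were Flg -0.30, Ivl -0.13, Sprr1b -3.18, Rptn -2.35, Cnfn -0.72, Ppl -0.23, Tgm1 -0.10, Tgm3 -1.53, Serpinb11 -0.31, Aloxe3 -0.72, Abca12 -0.31, Them5 -0.35, Grhl3 -0.39, Ovol1 -0.082, Klf4 -1.15 and Zfp750 -0.16. In triple Bcat tissue these were Abca12 -0.16, Dapl1 -0.18, Dynap -0.37 and Klf4 -0.66. In the masses these were Aloxe3 -0.33, Abca12 -0.23, Dapl1 -0.18, Klf4 -1.08 and Zfp750 -0.055. In the ventral tumours these were Aloxe3 -0.14 and Klf4 -0.34.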
